A study of Homo sapiens with 4 samples.

Results

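The genes described here are the 39 whose transcripts were at least 1.5-fold lower after siRNA against TTF-1 than after control siRNA in each of 2 human cell lines, both derived from small cell lung cancer. They were selected on that measured difference. They come from 13306 genes above an expression limit in both lines, out of 19775 genes with a value. NCI-H209 and Lu139 cells were electroporated with siRNA for TTF-1 (siTTF-1) or with non-targeting control siRNA (siNTC), and total RNA of each of the 4 combinations was hybridised to 1 Affymetrix array. The sources used here give neither the siRNA sequences nor the time from electroporation to harvest. No array has a replicate, each line is a single established cancer line, and the pair of lines is the only repetition of the siRNA difference.

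TTF-1, encoded by NKX2-1, is a homeodomain transcription factor of the lung, the thyroid and the ventral forebrain. It binds DNA at sites with a CAAG core and is known in lung epithelium for driving surfactant genes. It is present in most small cell lung cancers, which are neuroendocrine tumours, and siRNA lowers its transcript by directing cleavage of the messenger RNA.

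Members were found on log2(intensity + 18.7), where 18.7 is the 25th percentile of all values on the 4 arrays. A gene was read from its probe set with the highest mean, and its mean in each line had to exceed 5.80 on that scale, which is the 40th percentile of all probe set means and equals an intensity of 37.0. The siTTF-1 array had to be at least 1.5-fold below the siNTC array on that scale, in one line and in the other. Of the genes above the limit in both lines, 50 had such values, 0.376% of them. NKX2-1 itself and 10 others (RCN1, MAP7D2, TRIM24, NAB1, SAMHD1, ELOVL2, MBNL3, TMEM38B, NTM and BIRC5) were left out by name, which leaves the 39. NFIB was also named among the 12 genes to leave out, but its difference in Lu139 (-0.54) did not reach the threshold. The siRNA difference chose the members, so it is given below as a description without a test. In bulk RNA, fewer cells that express a gene and less of its RNA per cell cannot be told apart.

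NKX2-1 had an intensity of 243 on the siTTF-1 array and 596 on the siNTC array of NCI-H209, and of 461 and 780 on the corresponding arrays of Lu139. The neuroendocrine markers INSM1, CHGA, SYP, NCAM1, DLL3 and SCG3 were above the expression limit in both lines, as were the epithelial markers EPCAM, KRT8, KRT18 and CDH1. Of the 5 measured markers of other cell types, the leukocyte gene PTPRC and the fibroblast gene COL1A2 were under the limit in both lines, and CD3E, COL1A1 and PECAM1 were above it. The summed intensity of those 5 was 568 after siTTF-1 and 511 after siNTC in NCI-H209, and 611 and 528 in Lu139. No marker in the 3 groups was 1.5-fold lower or higher in either line.

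The promoters of the members come first, since TTF-1 acts by binding DNA. RefSeq sequence from 250 bases before to 50 bases after the gene start (assembly GRCh38.p14) was matched to 35 of the 39 members. The letters CTCAAG, the CAAG core of a TTF-1 site with 2 bases before it, were found on either strand in 3 of the 35 promoters, 8.57%. They were in 10.4% of the promoters of 10713 genes above the limit in both lines and in 12.4% of all 27305 promoters. The share among the members is near the share among expressed genes. The 3 promoters are those of KRCC1, KALRN and POLR3GL, shown 5′ to 3′ along the gene's strand with the matched letters in capitals because they are the members whose window holds the longer letters:
KRCC1, chr2:88055734-88056033, minus strand: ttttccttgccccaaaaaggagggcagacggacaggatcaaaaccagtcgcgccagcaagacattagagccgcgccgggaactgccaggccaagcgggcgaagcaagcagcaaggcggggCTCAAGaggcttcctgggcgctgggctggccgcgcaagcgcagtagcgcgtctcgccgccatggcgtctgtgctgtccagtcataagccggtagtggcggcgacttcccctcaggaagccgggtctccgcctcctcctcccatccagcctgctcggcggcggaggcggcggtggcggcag
KALRN, chr3:124094457-124094756, plus strand: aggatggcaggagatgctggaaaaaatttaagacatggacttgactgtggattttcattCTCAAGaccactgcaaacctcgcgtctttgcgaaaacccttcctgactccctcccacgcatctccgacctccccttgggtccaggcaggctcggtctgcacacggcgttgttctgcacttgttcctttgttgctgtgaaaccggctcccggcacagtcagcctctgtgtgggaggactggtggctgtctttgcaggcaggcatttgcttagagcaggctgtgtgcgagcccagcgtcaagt
POLR3GL, chr1:145964440-145964739, plus strand: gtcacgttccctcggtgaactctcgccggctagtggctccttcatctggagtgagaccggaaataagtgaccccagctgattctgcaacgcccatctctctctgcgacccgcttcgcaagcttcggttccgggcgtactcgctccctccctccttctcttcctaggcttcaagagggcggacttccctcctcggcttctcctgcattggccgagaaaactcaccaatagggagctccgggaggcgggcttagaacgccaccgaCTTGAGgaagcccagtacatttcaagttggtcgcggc

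The match began 130 bases before the gene start in KRCC1 and 191 bases before it in KALRN. In POLR3GL it lay on the opposite strand, as CTTGAG, and began at base 14 of the transcript. The KRCC1 window held 7 matches of the bare core CAAG on either strand, counting the one inside CTCAAG. Those 4 letters were found in 27 of the 35 member promoters (77.1%) and in 81.7% of promoters of expressed genes, so they separate few promoters. TTGGCA, a half-site of nuclear factor I proteins, was in 3 member promoters (8.57%, against 9.61% of expressed genes), those of MFSD6, MAP9 and LPP. The full palindromic site of nuclear factor I was in 0 of the 35 and in 0.0373% of expressed genes. TGACGTCA, the cyclic AMP response element, was in the promoters of LPP and TMTC4, 5.71% of members and 3.24% of expressed genes. A match of letters describes the window and does not show binding.

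Member promoters had a median G and C content of 62.0%, with 41.0% in CAVIN4 as the lowest and 81.7% in PCGF5 as the highest, and the promoters of expressed genes had a median of 65.0%. The median count of CG dinucleotides in the window was 25 in members and 26 in expressed genes.

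**Figure D1:**
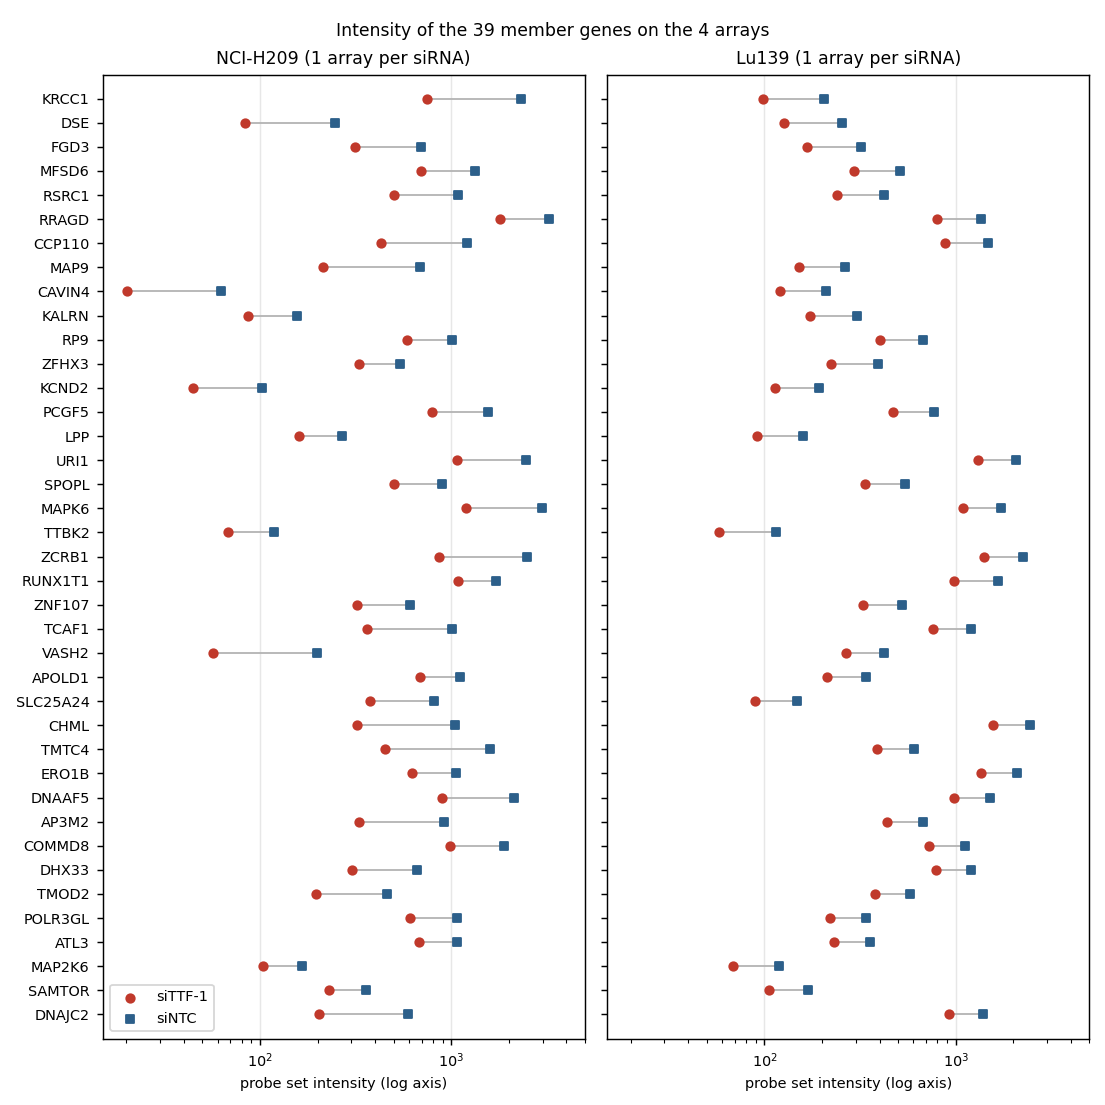
Intensity of each of the 39 member genes (rows, in order of the smaller of the 2 decreases) on the siTTF-1 array (red circles) and the siNTC array (blue squares) of NCI-H209 (left) and Lu139 (right), on a log axis, with 1 array per point. Every circle lies left of its square, as the rule requires, and the gaps are wider in NCI-H209 for most genes.

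Across the members the median log2 difference was -1.06 in NCI-H209 and -0.67 in Lu139, beside medians of 0.01 and 0.03 over all genes above the limit in both lines. Read as plain intensity, the median member was at 46.3% of its control level in NCI-H209 (28.4% to 63.8%) and at 61.6% in Lu139 (48.1% to 66.1%). On the log2 scale used to find the members, 20 of the 39 were at least 2-fold lower in NCI-H209 and 0 in Lu139. On that scale 0.649% and 0.0429% of all genes above the limit of the line were 2-fold lower. As plain intensity, KRCC1 (48.1% of control) and DSE (49.6%) were more than 2-fold lower in Lu139. KCND2, at 43.2% of control in NCI-H209, was also 2-fold lower there only as plain intensity. The log2 difference was the larger in NCI-H209 for 33 members and in Lu139 for 6 (KALRN, ZFHX3, LPP, TTBK2, RUNX1T1 and MAP2K6). This count comes from the differences that chose the members. Among all genes above the limit of the line, 3.52% were 1.5-fold lower in NCI-H209 and 0.936% in Lu139. With a single array for each siRNA in a line, no test of unequal siRNA differences was possible.

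**Figure D2:**
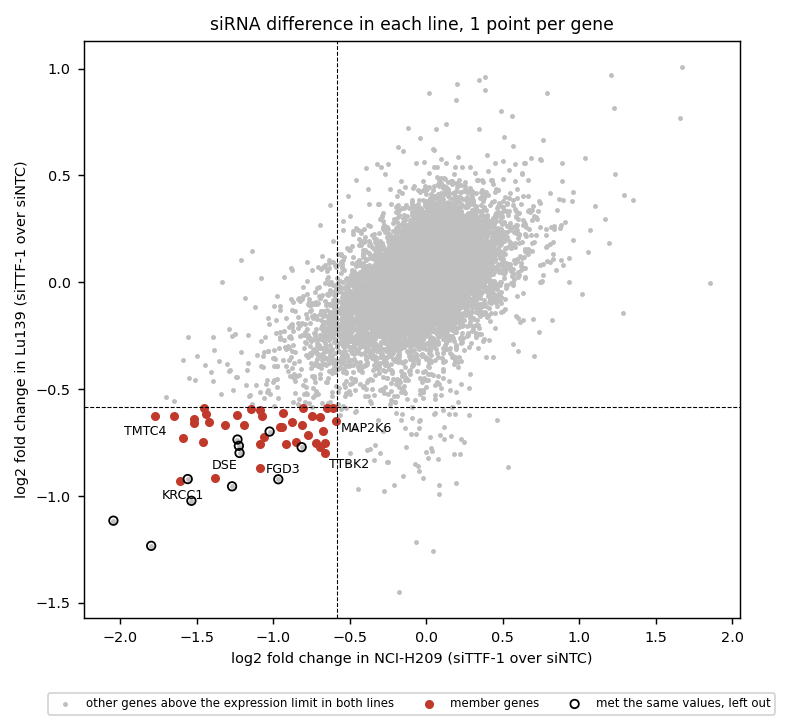
Log2 fold change, siTTF-1 over siNTC, in NCI-H209 (x axis) and Lu139 (y axis) for the 13306 expressed genes, with the 39 members in red, the 11 genes left out by name as open circles and the 1.5-fold threshold as dashed lines. The members lie between -1.77 and -0.59 in NCI-H209 and in the narrower range from -0.93 to -0.59 in Lu139.

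The members had diverse known roles, and they are described below in groups by role that were drawn up after their values were seen. KRCC1, which encodes a lysine-rich coiled-coil protein, came first in the order of the smaller of the 2 decreases. Its intensity was 749 on the siTTF-1 array and 2320.1 on the siNTC array of NCI-H209, while the Lu139 arrays read 98.7 after siTTF-1 and 205 after siNTC. These are log2 differences of -1.61 and -0.93. KRCC1 was bright in NCI-H209 and dim in Lu139, and the arrays of the lines do not overlap. It was read from a probe set of the _x_at kind, whose probes can also match other transcripts. Its other 2 probe sets were lower in both lines too, at -1.58 (NCI-H209) and -0.64 (Lu139) for one, and at -1.74 and -1.04 for the other. APOLD1, an endothelial early response gene that belongs to no group here, was at 683 after siTTF-1 and 1116 after siNTC in NCI-H209, while in Lu139 the values were 214 and 340.2.

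The group of microtubule, centrosome and cilium genes had 5 members, with median log2 differences of -1.46 in NCI-H209 and -0.73 in Lu139. CCP110 encodes a protein that caps centrioles and holds back the outgrowth of a primary cilium. It stood at 428 after siTTF-1 and 1209 after siNTC in NCI-H209, while in Lu139 the values were 875 and 1479 (-1.46 and -0.74 on the log2 scale). TTBK2 encodes the tau tubulin kinase that removes the CCP110 cap when a cilium is started. Its levels were low, 67.6 and 118 in NCI-H209, while in Lu139 the values were 57.9 and 114, each siTTF-1 before siNTC. That the kinase and the cap protein it acts on were both lower follows from the rule, which every member met, and a link between them was not tested. TTBK2 was lost from the set under 3 of the alternative settings described below.

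MAP9, which encodes a microtubule-associated protein of the mitotic spindle, had 214 after siTTF-1 and 684 after siNTC in NCI-H209, while in Lu139 the values were 152 and 265. All 4 of its probe sets were lower in both lines, from -2.29 to -1.50 in NCI-H209 and from -0.94 to -0.40 in Lu139. VASH2 encodes a vasohibin, an enzyme that removes the last tyrosine of alpha-tubulin. It had 57.0 and 198 in NCI-H209 (log2 difference -1.51), and 266 and 424 in Lu139 (-0.64). DNAAF5, an assembly factor for the dynein arms of motile cilia, had log2 differences of -1.24 and -0.62.

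Actin and adhesion genes gave 4 members, with medians of -0.90 in NCI-H209 and -0.72 in Lu139. FGD3, an exchange factor of the family that activates the GTPase CDC42, was at 315 after siTTF-1 and 691 after siNTC in NCI-H209, while in Lu139 the values were 167 and 321. KALRN, which encodes the neuronal protein kalirin, was at 86.8 and 155 in NCI-H209, while in Lu139 the values were 172 and 303, siTTF-1 first. LPP, a zyxin-related protein of focal adhesions, was at 161 and 267 in NCI-H209, while in Lu139 the values were 91.4 and 159.6. KALRN and LPP were among the dimmer members and among the few with the larger difference in Lu139. TMOD2, the neuronal tropomodulin that caps the slow-growing end of actin filaments, had log2 differences of -1.15 in NCI-H209 and -0.59 in Lu139.

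No other exchange factor of the FGD family was 1.5-fold lower in a line. In a list of 16 genes of the FGD family, CDC42 and its effectors, 15 were above the limit in NCI-H209 and 14 in Lu139. At 1.5-fold, 1 was lower in NCI-H209 (FGD3) and 2 in Lu139, FGD3 and the CDC42-binding kinase gene CDC42BPA (-0.32 in NCI-H209 and -0.64 in Lu139), and 0 were higher in either line. The list was drawn up around FGD3, which the rule itself had chosen, so only CDC42BPA was counted apart from the rule. Over all genes above the limit, 3.52% were 1.5-fold lower in NCI-H209 and 0.936% in Lu139, and 1.09% and 0.193% were higher. FGD4 (-0.40 and -0.39) and FGD6 (-0.22 and -0.43) had smaller differences, and CDC42 had 0.25 and -0.03. The list median was 0.00 in NCI-H209 and -0.00493 in Lu139.

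Transcription and chromatin genes gave 6 members, with medians of -0.84 in NCI-H209 and -0.67 in Lu139. ZFHX3, a large zinc finger homeodomain factor of neurons, had 328 after siTTF-1 and 542 after siNTC in NCI-H209, while in Lu139 the values were 223 and 393. PCGF5, a subunit of a Polycomb repressive complex that ubiquitinates histone H2A, had 790.1 and 1552 in NCI-H209, while in Lu139 the values were 472 and 767. RUNX1T1, the co-repressor also called ETO, had 1078 and 1712 in NCI-H209, while in Lu139 the values were 977 and 1656, siTTF-1 first in each pair. The line difference of RUNX1T1, Lu139 minus NCI-H209, was -0.09 and did not pass the limma test described below. It was 0.37 and passed under quantile normalization over the 4 arrays (limma adjusted p = 0.00651), and -0.26 and passed with the mean of all probe sets (limma adjusted p = 0.0389). URI1, a prefoldin-like protein that binds a shared subunit of RNA polymerases, had log2 differences of -1.19 and -0.67. POLR3GL, a subunit of RNA polymerase III, had -0.81 and -0.59, and the zinc finger gene ZNF107 had -0.87 and -0.65. Like KRCC1, URI1 and ZNF107 were read from probe sets of the _x_at kind. On its further probe sets, both above the limit in both lines, ZNF107 had -0.27 and -0.08, and 0.07 and -0.02. URI1 had -1.56 and -0.91, and -0.81 and -0.21, on its further probe sets above the limit.

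Genes of RNA handling and the ribosome gave 5 members, with medians of -1.08 in NCI-H209 and -0.66 in Lu139. RSRC1, an arginine and serine rich splicing protein, was at 503 after siTTF-1 and 1088 after siNTC in NCI-H209, while in Lu139 the values were 241 and 419. ZCRB1, a protein of the minor spliceosome, was one of the brightest members, at 861 and 2495 in NCI-H209, while in Lu139 the values were 1413 and 2243. RP9, a nuclear protein named for a form of retinitis pigmentosa, was at 585 and 1013 in NCI-H209, while in Lu139 the values were 403 and 672, siTTF-1 first. All 3 probe sets of RSRC1 and both of ZCRB1 were lower in each line. The RNA helicase gene DHX33 had log2 differences of -1.08 and -0.60, with -1.17 and -0.61 on its other probe set. DNAJC2, a chaperone of the ribosome that is also called zuotin, had -1.45 and -0.59, the smaller of which was nearest to the threshold among the 39.

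The endoplasmic reticulum and Golgi group had 4 members, with medians of -1.06 in NCI-H209 and -0.63 in Lu139. DSE, the epimerase that turns chondroitin sulfate into dermatan sulfate, had 83.6 after siTTF-1 and 248 after siNTC in NCI-H209, while in Lu139 the values were 126 and 254. TMTC4, a mannosyltransferase of the endoplasmic reticulum that acts on cadherins, had 451 and 1587 in NCI-H209, the lowest share of control among the members at 28.4%. In Lu139 it had 387 and 608, or 63.7% of control. ERO1B, an oxidase that helps to form disulfide bonds in secretory cells, had log2 differences of -0.75 and -0.62. ATL3, a GTPase that fuses tubules of the endoplasmic reticulum, had -0.65 and -0.59.

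Among the enzymes that build chondroitin and dermatan sulfate, DSE was the only one 1.5-fold lower in either line. Of 22 genes of that pathway, 18 were above the limit in each line, and 1 of them was 1.5-fold lower and 0 were higher in each, where 3.52% of all genes above the limit were lower in NCI-H209 and 0.936% in Lu139. That 1 is DSE, which the rule itself had chosen. DSEL, the paralog of DSE, was under the limit in both lines, and the dermatan 4-O-sulfotransferase gene CHST14 had -0.08 in NCI-H209 and -0.04 in Lu139. CHST15, which adds a further sulfate to chondroitin, had 0.37 and 0.39. The list median was -0.09 for NCI-H209 and 0.09 for Lu139.

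Membrane traffic, channel and carrier genes were the most numerous, with 8 members and medians of -1.07 in NCI-H209 and -0.64 in Lu139. MFSD6, a transporter-like protein of the major facilitator superfamily, was at 697 after siTTF-1 and 1335 after siNTC in NCI-H209, while in Lu139 the values were 294 and 509. KCND2, which encodes the potassium channel Kv4.2 of neurons, was at 44.3 and 103 in NCI-H209, while in Lu139 the values were 113 and 193. CAVIN4, a caveolar protein known from muscle, was at 20.2 and 62.5 in NCI-H209, while in Lu139 the values were 120.5 and 211, siTTF-1 first in each pair. CAVIN4 was the 1 member with an array under the expression limit, the siTTF-1 array of NCI-H209.

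CHML, a Rab escort protein needed to attach lipid to Rab GTPases, had 323 after siTTF-1 and 1049 after siNTC in NCI-H209, while in Lu139 the values were 1570.2 and 2434. AP3M2, a subunit of the neuronal adaptor complex AP-3 that sorts vesicle cargo, had log2 differences of -1.44 and -0.62. TCAF1, which binds the cold-sensing channel TRPM8, had -1.42 and -0.65, and all 5 of its probe sets were lower in both lines. SLC25A24, a mitochondrial carrier of ATP-magnesium and phosphate, had -1.07 and -0.63. COMMD8, a subunit of an endosomal recycling complex, had -0.94 and -0.61.

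Nutrient and kinase signalling gave 5 members, with medians of -0.81 in NCI-H209 and -0.67 in Lu139. RRAGD, a Rag GTPase that brings mTORC1 to the lysosome when amino acids are present, was the brightest member on the NCI-H209 arrays. Its intensity was 1793 after siTTF-1 and 3243 after siNTC in NCI-H209, while in Lu139 the values were 801 and 1355. SAMTOR, a sensor of S-adenosylmethionine that restrains mTORC1, was at 229 and 359 in NCI-H209, while in Lu139 the values were 106 and 168, siTTF-1 first. These genes act with opposite sign on the same kinase complex. Both were lower, as the rule requires of every member, and SAMTOR was lost from the set under 3 alternative settings.

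MAPK6, the atypical kinase ERK3, had 1191 after siTTF-1 and 2984 after siNTC in NCI-H209, while in Lu139 the values were 1085 and 1735. MAP2K6, an activator of p38 kinases, had log2 differences of -0.59 in NCI-H209, close to the threshold, and -0.65 in Lu139. SPOPL, an adaptor of a cullin-3 ubiquitin ligase, was counted in this group although the group's name does not cover it. It had -0.81 and -0.67.

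The differences ran on without a gap across the threshold. The last members inside the threshold, by the higher of the 2 differences, were DNAJC2 (-0.59), SAMTOR (-0.59), MAP2K6 (-0.59), ATL3 (-0.59) and POLR3GL (-0.59). The first genes outside it were VCL (-0.75 in NCI-H209 and -0.58 in Lu139), PAAF1 (-0.99 and -0.58), ZNF605 (-1.14 and -0.57), RAB11B-AS1 (-0.84 and -0.57) and RFX3 (-0.58 and -0.57). VCL encodes vinculin of focal adhesions and RFX3 a factor of ciliary genes. In the other direction, 6 of the 13306 genes (0.0451%) were 1.5-fold higher in both lines.

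The other probe sets of the members were not used to choose them but were read on the same arrays, so they are a description too. Of the 39 genes 6 had 1 probe set and 33 had several, with 81 further probe sets in all. Above the limit in both lines were 53 of these, of which 45 (84.9%) were lower in both lines, and 17 were 1.5-fold lower in both. Over the further probe sets of all genes above the limit, 11217 in number, 30.7% were lower in both lines. The medians of the 53 were -0.64 in NCI-H209 and -0.49 in Lu139, smaller in size than those of the brightest probe sets. Among 28 members with at least 2 probe sets above the limit in both lines, all such probe sets were lower in both lines for 21.

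For 7 of these 28 members, at least 1 of the probe sets above the limit was not lower in both lines. With dim probe sets counted too, all probe sets of the gene were lower in both lines for 16 of the 33 members with several. CCP110 had 0.24 and 0.07 on its dim second probe set, and SLC25A24 had 0.27 and 0.00 on its second. ATL3 had 0.24 and -0.11 on a second probe set, which was read at 429.5 after siTTF-1 and 360.0 after siNTC in NCI-H209. KALRN, PCGF5, RUNX1T1 and ZNF107 each had at least 1 further probe set above the limit that was not lower in both lines. Probe sets of 1 gene can read different transcript ends, and which transcripts were read was not tested. DSE stood on 1 probe set alone, since its other 3 were under the limit in both lines. MAPK6, MAP2K6, DNAJC2 and AP3M2 also had several probe sets but only 1 above the limit in both lines. With the mean of all probe sets of a gene in place of the brightest, 16 of the 39 still met the rule.

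**Figure D3:**
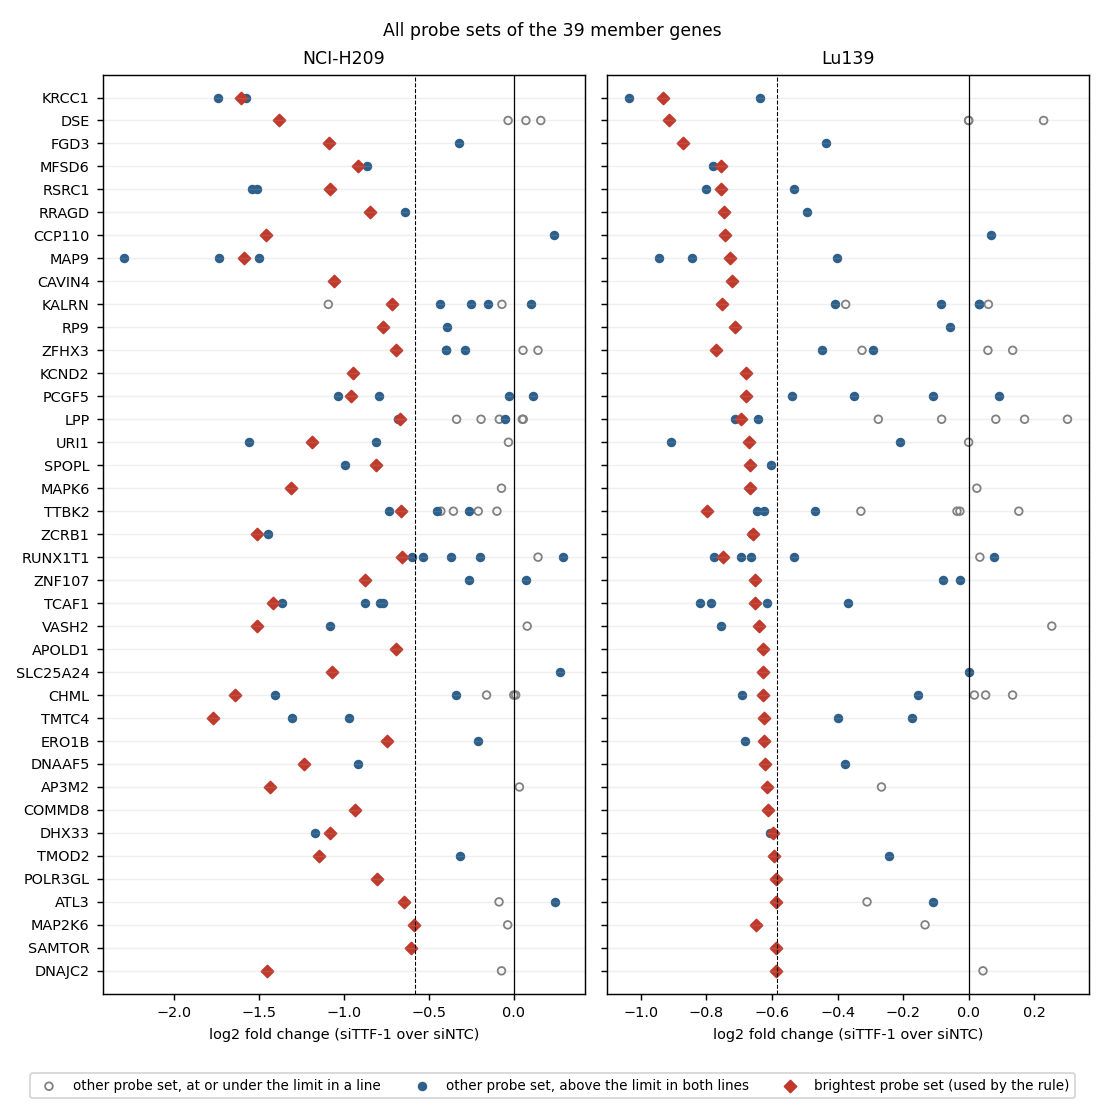
Log2 fold change, siTTF-1 over siNTC, of every probe set of the 39 members (rows) in NCI-H209 (left) and Lu139 (right), with the brightest probe set as red diamonds, other probe sets above the expression limit in both lines as filled blue circles and those at or under it in a line as open circles. The filled circles lie left of 0 in both lines for 45 of 53, and most open circles lie near 0.

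The level of a member is not independent of the rule, since the siNTC value enters the difference. In NCI-H209 the median intensity of the members was 376 after siTTF-1 and 1005 after siNTC, beside 347 and 358 for all genes above the limit. In Lu139 the members had medians of 327 after siTTF-1 and 525 after siNTC, beside 251 and 253. Differences of dim genes are shrunk by the pseudocount, so a bright gene passes the threshold more easily. Gene structure was not used by the rule. All 39 were protein-coding genes. Their genomic span in the RefSeq table had a median of 65550.0 bases, against 27016.5 bases for 13290 genes above the limit, and 32 of the 39 were longer than that median of expressed genes. ZFHX3, with 1109046 bases, LPP with 737651, KALRN with 692957, KCND2 with 477430 and RSRC1 with 435642 were the longest. CHML, with 11519 bases, was the shortest. Of the 35 members in the promoter table, 7 (20%) lay on chromosome 7, which carried 4.72% of the 10713 genes above the limit in that table. These were RP9, KCND2, ZNF107, TCAF1, DNAAF5, SAMTOR and DNAJC2. The genes counted there include none of chromosome 8, where the members AP3M2 and RUNX1T1 lie, so the shares leave that chromosome out. Span and chromosome were looked at after the members were known, and no test was made.

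The difference between the lines was not used by the rule and was tested across 14547 genes with limma, fitting line and siRNA together. Lu139 was set against NCI-H209, so a positive value means higher in Lu139. At a limma adjusted p under 0.05 (Benjamini-Hochberg), 11 of the 39 members were higher in Lu139 (28.2%, beside 18.7% of all tested genes) and 20 were lower (51.3%, beside 51.7%). The other 8 did not pass. Tested genes passed the limit on their mean over the 4 arrays, while members had to pass it in each line, so the sets differ. The 2 arrays of a line stand in for replicates here. The fit leaves 1 residual degree of freedom per gene, and limma adds a prior of 5.91 degrees of freedom from all tested genes. A gene's own residual is the gap between its 2 siRNA differences, which the rule used. Each p therefore rests largely on the variance of other genes on these 4 arrays and does not measure spread between replicates.

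The split depends on the scaling between the lines. On the deposited values the median of all tested genes was -0.28, and exactly equal intensities occurred between the arrays of a line (2416 in NCI-H209 and 2206 in Lu139) and never between lines. How the authors scaled the lines to each other was not stated. With quantile normalization over the 4 arrays the median of all tested genes was 0.04, and 16 members were higher and 12 lower in Lu139. Relative to the median of -0.28, 19 members lay above and 20 at or below. Under every alternative that keeps the siRNA term and gives the gene a value, 8 higher and 11 lower calls still passed as such. Among the other calls, only those of MAPK6 and TCAF1 changed sign under an alternative. The rest kept their sign but did not pass under at least 1 alternative.

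KRCC1 had the largest line difference, -3.05 (95% confidence interval -3.43 to -2.66, limma adjusted p = 4.66e-06), 8.27-fold lower in Lu139 on the scale with the pseudocount. SLC25A24 followed with -2.09 (-2.41 to -1.78, limma adjusted p = 9.65e-06). Its intensity was 89.3 after siTTF-1 and 148 after siNTC in Lu139, and 376 and 813 in NCI-H209, with no overlap between the lines. CHML was higher in Lu139 by 1.71 (1.20 to 2.22, limma adjusted p = 2.91e-04), CAVIN4 by 1.67 (1.41 to 1.93, limma adjusted p = 1.21e-05) and DNAJC2 by 1.64 (1.19 to 2.09, limma adjusted p = 2.02e-04). The lines did not overlap in CHML, CAVIN4 or DNAJC2 either. DNAJC2 had 917 and 1387 in Lu139, against 204 and 590.4 in NCI-H209, siTTF-1 before siNTC in each line.

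The role groups were drawn up after the values were seen. All 5 members counted under nutrient and kinase signalling, SPOPL among them, were lower in Lu139, as were 51.7% of all tested genes. RRAGD had a log2 difference of -1.20 and SAMTOR of -1.01. Of the 8 membrane traffic, channel and carrier genes 4 were higher and 3 lower. Under quantile normalization over the 4 arrays RRAGD and SAMTOR still passed, while MAPK6 (0.00647), SPOPL (-0.17) and MAP2K6 (-0.15) no longer did. Of the microtubule, centrosome and cilium genes, VASH2 (1.47) and CCP110 (0.64) were higher in Lu139 and MAP9 (-0.88) was lower. The larger siRNA difference lay in NCI-H209 for 33 of the 39 members, which the rule chose on these differences. It did so for 10 of the 11 members that were higher in Lu139, for 17 of the 20 that were lower there and for 6 of the 8 that did not pass. These shares lie near that of all members, so no relation between level and siRNA difference is read from them.

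**Figure D4:**
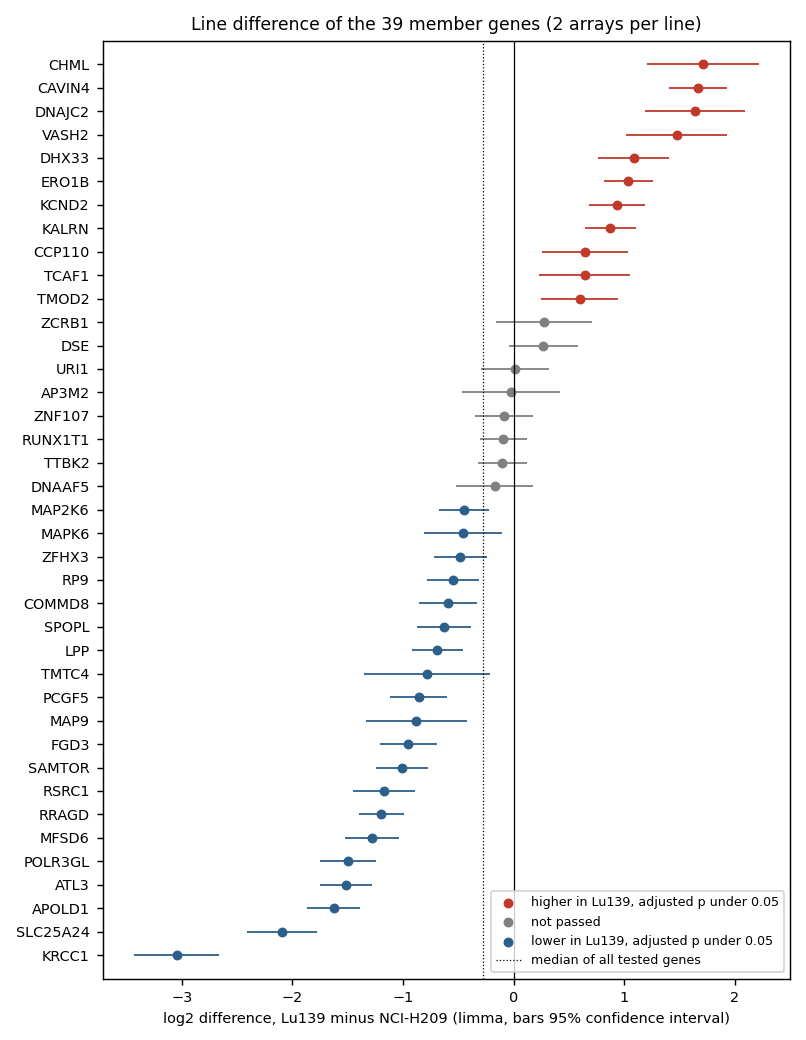
Log2 difference, Lu139 minus NCI-H209, of the 39 members with 95% confidence intervals from limma (2 arrays per line), in red where higher and in blue where lower in Lu139 at an adjusted p under 0.05, with the median of all tested genes as a dotted line. The members spread from -3.05 for KRCC1 to 1.71 for CHML, on both sides of that median.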

How the data were processed

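RNA of each line and siRNA was read on 1 array. The authors deposited a linear intensity for every probe set and array. Per the submitters' processing notes they used Affymetrix Expression Console; its version, summarisation and normalization were not stated. Of 54675 probe sets, 41091 were paired with exactly 1 gene symbol, updated by gene identifier through a RefSeq table of GRCh38.p14. Intensities have no depth, so the number of arrays limits the precision.

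Analysis was done in Python 3.11.15 with pandas 2.3.3 and in R 4.3.3 with limma 3.58.1 (variance trend, Benjamini-Hochberg over all genes tested, two-sided). Text names every member, with all intensities for the first 15 and for others where they help, NKX2-1, the 5 genes just outside the threshold and the 5 largest line differences. Role groups were drawn up after the values were seen. Members and lists were chosen with earlier results of these data known. Some marker genes are not reported here. Alternatives covered pseudocount, expression limit, probe set choice, normalization and model terms.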

Additional observations from a re-analysis of the deposited data

How the results depend on the processing

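With 1 array per group no replicate could be left out, and no paired analysis was possible by replicate number because the labels give none. The fit of line and siRNA together compares the lines within each siRNA, and the fit without the siRNA term does not. A threshold of 2-fold left 0 members. With the mean of all probe sets of a gene 16 genes met the rule, all of them members, and the median member difference in NCI-H209 was -0.71. Under the other alternatives 31 to 50 genes met the rule and 31 to 39 of the members were kept. Over 10 alternatives, leaving aside the 2-fold threshold, 11 members were kept in every one and 27 in all except, at most, the mean of all probe sets. Leaving out _x_at probe sets, an alternative chosen after seeing the data, lost ZNF107. No member's siRNA difference changed sign under an alternative.

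For the line comparison, quantile normalization over the 4 arrays gave 12 members lower in Lu139. Without the siRNA term, which then counts in the spread, 6 were higher and 9 lower. Line differences that changed sign were those of MAPK6 (0.00647), DNAAF5 (0.28), TTBK2 (0.15), RUNX1T1 (0.37), ZNF107 (0.38) and AP3M2 (0.43) under quantile normalization over the 4 arrays, of TTBK2 (0.0600), RUNX1T1 (0.0712), ZNF107 (0.0772) and AP3M2 (0.14) with arrays centred on their medians, and of AP3M2 (0.24) and TCAF1 (-0.15) with the mean of all probe sets. MAPK6 and TCAF1 passed on the deposited values and the other 5 did not, while RUNX1T1 and ZNF107 passed as higher under quantile normalization over the 4 arrays. The cause of these changes was not tested. CAVIN4, with 1 array under the expression limit of 37.0, was lost from the set under 4 alternatives. TMOD2, ATL3 and MAP2K6 were also lost under 4 each, and TTBK2, POLR3GL, SAMTOR and DNAJC2 under 3 each.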
